A study of Mus musculus with 2 samples.

Results

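The 9 genes described here encode effector proteins of basophils, mast cells and eosinophils: Mcpt8, Prss34, Cpa3, Ms4a2, Fcer1a, Hdc, Cd200r3, Prg2 and Prg3. They were read in granulocyte-monocyte progenitors (GMP), the marrow precursors of neutrophils and monocytes. They are 9 of 21474 protein-coding genes matched by symbol, and all 9 had a row in both libraries. They were chosen by their known roles and by their TPM and expected counts in these libraries, so their levels and differences are given as a description, with no test.

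The study holds 1 group of 2 total RNA-seq libraries, called replicate 1 and replicate 2 after their labels. Each was made from a pool of 100 GMP taken from adult male C57BL/6J mice of 5 to 6 weeks, with spike-in RNA added. No treatment, genetic change or second cell type was present, so nothing can be compared except genes with genes and library with library. The labels number the libraries as biological replicates 1 and 2. Both carry 1 donor identifier, however, and the labels do not say whether separate animals were used. Every SD below therefore covers only how far these libraries lie apart, and this may be a technical spread. A pool of 100 cells samples rare cells coarsely, and in bulk RNA fewer cells of a type and less RNA per cell cannot be told apart.

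Basophils and mast cells carry the high-affinity IgE receptor and store histamine, proteases and proteoglycans in granules that are released when antigen cross-links bound IgE. Eosinophils store basic proteins and a peroxidase in theirs. All derive from myeloid progenitors, and precursors of basophils and mast cells have been described among or just downstream of cells sorted as GMP. The factor GATA2 is required in both lineages, and it binds DNA sites built around the letters GATAA.

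Replicate 1 held 40509954 expected counts and replicate 2 held 35675702, of which 8186 and 4963 fell on the 9 genes. A count of 0 allows up to 3 counts, which is 0.0741 CPM (each count as a share of its library, on 1 common scale) in replicate 1 and 0.0841 CPM in replicate 2. The labelled cell type was met by its own genes: 9 of 9 granulocyte-monocyte genes with a row reached 1 TPM (a transcript level corrected for length and scaled to 1 total in every library) in both libraries, with Mpo, myeloperoxidase, at 6332 and 6602 TPM. Kit, the stem cell factor receptor, was at 69.2 and 56.2 TPM, and Ly6a, which encodes Sca-1, had 0 counts in both. Of the 8 stem cell genes, Meis1 at 11.7 and 6.08 TPM and Hlf at 4.85 and 5.29 TPM reached 1 TPM in both. Between the libraries, 7.52% of the 10278 protein-coding genes of 1 TPM or more on average differed by over 2-fold in log2(TPM + 1), and 3.08% did so with the higher value in replicate 1.

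The promoters are shown first, because 6 of the 8 genes with an entry in the promoter table hold a GATAA in the 250 bases before the start. The sequences come from RefSeq on GRCm38.p6. Each line gives the 150 bases that end just before the annotated start, 5′ to 3′ on the gene's own strand. Capitals mark every GATAA and its reverse complement TTATC. Prss34 (chr17:25298244-25298393, plus strand) and Fcer1a (chr1:173227230-173227379, minus strand) are shown because their counts had the largest ratios between the libraries among members found in both. Ms4a2 (chr19:11623720-11623869, minus strand) and Cpa3 (chr3:20242182-20242331, minus strand) are shown as the IgE receptor partner and a granule enzyme found in both. Hdc (chr2:126618679-126618828, minus strand) and Mcpt8 (chr14:56085198-56085347, minus strand) are the members without the letters in that window. RefSeq starts were used here and GENCODE spans below, and these differ. The printed Hdc stretch lies inside the GENCODE span of Hdc, and that of Mcpt8 lies partly inside its span.
Prss34: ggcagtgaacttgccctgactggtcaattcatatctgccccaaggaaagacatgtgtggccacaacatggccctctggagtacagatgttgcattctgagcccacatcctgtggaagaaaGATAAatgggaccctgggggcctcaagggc
Fcer1a: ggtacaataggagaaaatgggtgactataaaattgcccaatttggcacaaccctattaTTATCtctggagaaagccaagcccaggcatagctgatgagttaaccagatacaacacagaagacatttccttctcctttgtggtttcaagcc
Ms4a2: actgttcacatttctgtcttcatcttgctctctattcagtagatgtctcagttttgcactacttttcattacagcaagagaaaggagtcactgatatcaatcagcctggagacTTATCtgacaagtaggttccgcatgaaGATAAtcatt
Cpa3: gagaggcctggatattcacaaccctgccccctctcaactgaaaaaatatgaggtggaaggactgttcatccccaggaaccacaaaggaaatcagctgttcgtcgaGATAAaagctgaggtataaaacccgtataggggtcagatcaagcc
Hdc: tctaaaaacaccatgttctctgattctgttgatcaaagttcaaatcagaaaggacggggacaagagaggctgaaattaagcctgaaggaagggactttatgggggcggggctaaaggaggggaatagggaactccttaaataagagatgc
Mcpt8: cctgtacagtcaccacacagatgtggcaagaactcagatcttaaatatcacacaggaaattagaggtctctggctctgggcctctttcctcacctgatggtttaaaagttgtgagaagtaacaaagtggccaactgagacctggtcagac

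The first base of the Prss34 motif lies 30 bases before the start, that of Cpa3 45 bases before, and that of the reverse motif of Fcer1a 92 bases before. Ms4a2 holds GATAA 10 bases before its start and TTATC 37 and 224 bases before, the last outside the printed stretch. Cd200r3 and Prg3 also hold the letters, Cd200r3 at 38 and, reversed, 115 bases and Prg3 reversed at 123 and 111 bases before the start. Prg2 has no printed promoter. Over all 32851 RefSeq promoters, 22.6% hold GATAA on either strand in the same 250 bases. The RUNX letters TGTGGT or ACCACA were in 4 of the 8 promoters (Mcpt8, Cpa3, Fcer1a and Prg3) and in 14.0% of all. The letters GGAAGT or ACTTCC, of the kind bound by PU.1 and other ETS factors, were in 1 of 8 (Prg3) and in 19.7% of all. These motifs do not overlap each other in letters, a match is a description rather than a bound site, and no match says only that the letters are not in this window. Whether GATAA bears on the levels was not tested. Hdc and Mcpt8, without it in these windows, were among the highest members, and Cd200r3, with it, was at most 1.47 TPM. For Hdc and Mcpt8 the absence rests on the RefSeq start, and windows before the GENCODE start were not read.

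Of the 9 genes, 6 reached 1 TPM in both libraries (Mcpt8, Hdc, Cpa3, Prss34, Ms4a2 and Prg3), against 45.6% of all 21474 protein-coding genes. Their median of mean TPM was 15.7, beside 0.550 over all protein-coding genes. Summed over the 9 genes the level was 222 TPM in replicate 1 and 129 TPM in replicate 2. Hdc, Cpa3 and Mcpt8 together held 62.5% of the first sum and 88.3% of the second. Prss34 held 20.1% and 0.890%. Without Prss34 the sums were 178 and 128 TPM.

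**Figure D1:**
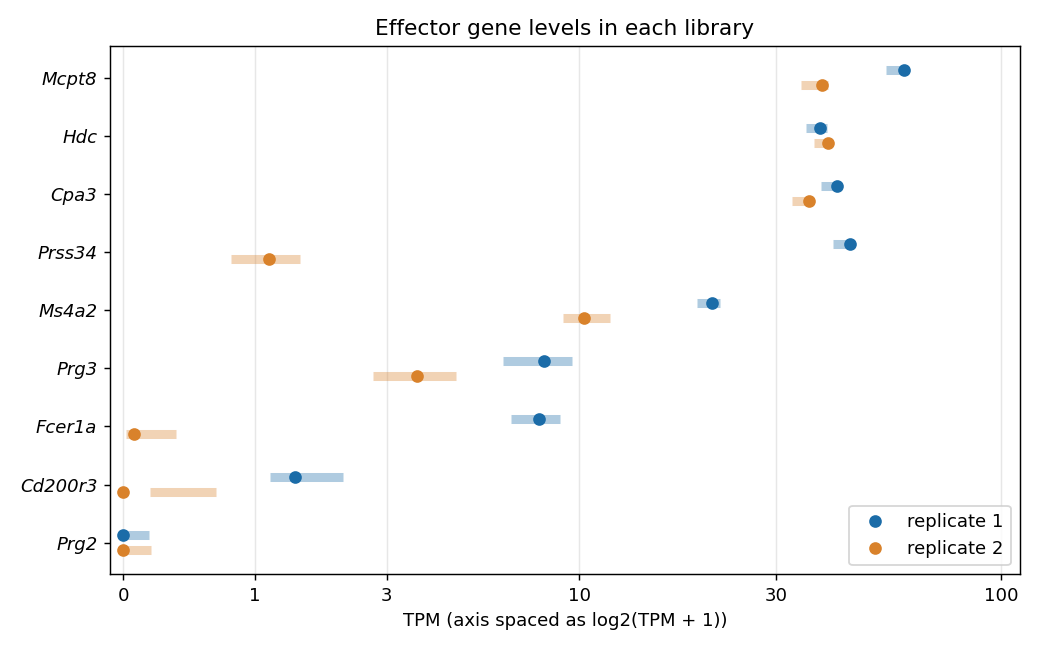
Each of the 9 effector genes (rows, by mean level) has its TPM in replicate 1 (blue point) and replicate 2 (orange point), with the interval deposited by the authors as a pale bar, on an axis spaced as log2(TPM + 1). Hdc and Cpa3 lie close in both libraries, Prss34 falls from 44.7 TPM in replicate 1 to 1.15 TPM in replicate 2, and Prg2 is at 0 in both.

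The granule proteases came first. Mcpt8, a serine protease used as a marker of mouse basophils (chr14:56082166-56085273, minus strand), had 1217 counts in replicate 1 and 704 in replicate 2. That is 59.6 and 38.5 TPM, a mean of 49.1 ± 15.0 TPM (SD, n = 2). Its mean level was above that of 93.3% of protein-coding genes. In CPM it was 1.52-fold higher in replicate 1 (95% exact interval 1.39 to 1.67). These intervals and the count floors cover counting error only, since the labels name no molecular identifiers. Mcpt8 thus stood high in both libraries and somewhat higher in the first.

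Mcpt8 lies in the chymase locus, a cluster of serine protease genes expressed by mast cells, neutrophils and cytotoxic lymphocytes (chr14:55941451-56262260). All 15 protein-coding genes of that span were in the list, and 12 had 0 counts in both libraries, against 42.5% of all protein-coding genes. The 12 were Cma1, Cma2, Mcpt1, Mcpt2, Mcpt4 and Mcpt9, the chymases and their relatives, and the granzymes Gzmc, Gzmd, Gzme, Gzmf, Gzmg and Gzmn. Mcpt4, the neighbour at lower coordinates, lies 19852 bases away. The neighbour on the other side, Ctsg, which encodes neutrophil cathepsin G and begins 14607 bases away, was at 1070 and 1031 TPM. Gzmb, granzyme B, at the far end, was at 3.79 and 1.03 TPM from 140 and 34 counts. No window of 50 bases of Mcpt8 occurs in another annotated gene's transcripts, so its counts are not shared with those relatives at that length.

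Prss34, a tryptase of basophils and mast cells (chr17:25298394-25300165, plus strand), showed the widest difference of the proteases. It had 1385 counts in replicate 1 and 32 in replicate 2, that is 44.7 and 1.15 TPM, and a mean of 22.9 ± 30.8 TPM (SD, n = 2). The first library was 38.1-fold higher in CPM (95% exact interval 26.9 to 55.9) and 38.8-fold higher in TPM. Its SD exceeds its mean, so no single level describes it. By rank among protein-coding genes it was 1585th in replicate 1 and 10126th in replicate 2. Among the 6095 protein-coding genes of 10 TPM or more on average it was the 4th furthest toward replicate 1.

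The other 7 genes of the tryptase list had 0 counts in both libraries. They were Tpsb2, Tpsab1 and Tpsg1, the mast cell tryptases, and Prss28, Prss29, Prss32 and Prss33. Prss28 begins 8480 bases past Prss34 and shares no 50-base window with it. The list takes tryptases and related proteases, not a whole region: its span (chr17:23833347-25374442) holds 77 protein-coding genes, of which 25 had 0 counts in both libraries. Over all protein-coding genes 42.5% had 0 counts in both.

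Cpa3, the carboxypeptidase A3 of mast cell granules that is also expressed in basophils and some early progenitors (chr3:20215620-20242181, minus strand), was the steadier protease. It had 1572 and 1214 counts, or 41.5 and 35.9 TPM, a mean of 38.7 ± 4.01 TPM (SD, n = 2). It was 1.14-fold higher in replicate 1 in CPM (95% exact interval 1.06 to 1.23). All counts were assigned to Cpa3-201, and the short non-coding Cpa3-202 had none. Cpb1, the carboxypeptidase B gene 6082 bases away, had 0 counts in both. Ctsc, the dipeptidase that activates chymases, tryptases and granzymes, was at 30.6 and 32.6 TPM.

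Hdc, histidine decarboxylase, which makes histamine (chr2:126593667-126619299, minus strand), was the member closest between the libraries in TPM. It had 2476 counts in replicate 1 and 2459 in replicate 2, or 37.9 and 39.7 TPM, a mean of 38.8 ± 1.24 TPM (SD, n = 2). Hdc was the only member with more TPM in replicate 2, and its deposited intervals of 35.2 to 39.4 and 36.8 to 40.4 TPM overlapped. In CPM the ratio of replicate 1 to replicate 2 was 0.887 (95% exact interval 0.838 to 0.938), so replicate 2 was higher by more than counting error. It led the order in replicate 2 and was the fourth in replicate 1. Of the genes that handle histamine after synthesis, Hnmt, the methyltransferase that inactivates it, was at 9.74 and 7.41 TPM, and Slc18a2, the vesicular transporter that loads granules, was at 3.57 and 4.57 TPM. Aoc1, diamine oxidase, was at 0.220 and 0.200 TPM. Of the 4 histamine receptor genes, Hrh2 was at 1.80 and 2.38 TPM and Hrh1, Hrh3 and Hrh4 had 0 counts in both libraries.

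Granule proteoglycan genes, whose chains hold histamine and proteases in the granule, were expressed in both libraries in 11 of 12 cases at 1 TPM or more. Over all protein-coding genes the share was 45.6%. Srgn, the serglycin core protein, stood at 1210 and 971 TPM, Chst12, a chondroitin sulphotransferase, at 37.8 and 41.1 TPM, and Chsy1, chondroitin synthase, at 22.4 and 20.1 TPM. Ndst2, the heparin sulphotransferase of mast cells, was at 9.04 and 7.37 TPM. None of those 11 differed by over 2-fold in log2(TPM + 1). Chpf was at 1.19 TPM in replicate 1 and listed at 0 in replicate 2. Serglycin is also stored by neutrophils and monocytes.

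The IgE receptor is built of an alpha chain that binds IgE, a beta chain that amplifies the signal and a pair of gamma chains that it shares with other Fc receptors. The 3 genes differed in how evenly the libraries held them. Fcer1a, the alpha chain (chr1:173221284-173227214, minus strand), had 193 counts in replicate 1 and 1 count in replicate 2. These are 7.91 and 0.0600 TPM, a mean of 3.99 ± 5.55 TPM (SD, n = 2). The CPM ratio was 170, and 1 count in replicate 2 leaves it poorly fixed (95% exact interval 30.1 to 6748). Among the 10278 protein-coding genes that averaged 1 TPM or more, Fcer1a was the 8th furthest toward replicate 1, where Prss34 was the 4th.

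Ms4a2, the beta chain (chr19:11615523-11623719, minus strand), had 1204 and 487 counts, or 21.2 and 10.3 TPM, with a mean of 15.7 ± 7.69 TPM (SD, n = 2). It was 2.18-fold higher in replicate 1 in CPM (95% exact interval 1.96 to 2.42) and -0.97 on the log2(TPM + 1) scale, just inside 2-fold. Replicate 2 thus held many beta chain counts beside a single alpha chain count. Ms4a3, a gene typical of GMP that lies 5776 bases away, was at 543 and 520 TPM, and Ms4a6d on the other side was at 1.73 and 3.00 TPM. Of the 50-base windows of Ms4a2, 2.10% also occur in Ms4a4b. Fcer1g, the shared gamma chain, was at 172 and 157 TPM.

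Downstream of the receptor, 15 of 16 genes of the IgE receptor and proximal signalling list reached 1 TPM in both libraries, Fcer1a being the exception. Of all protein-coding genes 45.6% did. The highest after Fcer1g were Inpp5d (SHIP1), an inhibitory phosphatase, at 49.4 and 85.8 TPM and Vav1, an exchange factor, at 66.6 and 67.7 TPM. Inpp5d had 4952 and 3871 counts, so its direction in TPM was not that of its counts. The kinases Syk and Lyn were at 28.7 and 38.8 TPM and at 24.2 and 28.7 TPM. Lat, the adaptor, was at 1.14 and 1.62 TPM. The list summed to 554 TPM in each library, and Fcer1a was its only gene apart by over 2-fold in log2(TPM + 1). In plain TPM Ms4a2 was also past 2-fold, at 2.06. Most of these signalling genes also serve other receptors of myeloid cells.

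Cd200r3, an activating receptor of the CD200 receptor family on basophils and mast cells (chr16:44943678-44981380, plus strand), had 34 counts in replicate 1 and 0 in replicate 2. It was at 1.47 and 0 TPM, and the interval deposited for replicate 2 lies above that listed 0. Against the floor of 3 counts it was at least 9.98-fold higher in replicate 1 in CPM. The lower 95% exact limit of that ratio, which also covers the counting error of the 34 counts, was 7.68. All 34 counts were given to Cd200r3-205, 1 of its 10 annotated transcripts. Of its 50-base windows 2.79% occur in other annotated genes. Cd200r1, the inhibitory receptor of the family, was at 6.59 and 2.68 TPM from 335 and 122 counts, while Cd200r2 and Cd200r4 had 0 counts in both libraries.

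The major basic protein genes Prg2 and Prg3, which eosinophils express most strongly, lie 4582 bases apart on chromosome 2 and differed from each other. Prg2 (chr2:84980461-84983632, plus strand) had 0 counts in both libraries. Prg3 (chr2:84988215-84993886, plus strand) had 105 and 66 counts, or 8.12 and 3.68 TPM, a mean of 5.90 ± 3.14 TPM (SD, n = 2). The CPM ratio of Prg3 was 1.40 in favour of replicate 1 (95% exact interval 1.02 to 1.94) while the TPM ratio was 2.21. The effective length that divides the counts was 440.25 bases in replicate 1 and 684 bases in replicate 2, and it follows the shares of the gene's transcripts, which differed too. On counts with TMM factors its log2 ratio was -0.39, against -0.96 on TPM.

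The order of the members by mean TPM ran from Mcpt8 through Hdc, Cpa3, Prss34, Ms4a2, Prg3, Fcer1a and Cd200r3 to Prg2. Only 1 of the 8 neighbouring pairs was separate, in that both libraries of Ms4a2 lay above both libraries of Prg3. The other 7 neighbours did not differ beyond their spread. In replicate 1 the order was Mcpt8, Prss34, Cpa3, Hdc, Ms4a2, Prg3, Fcer1a, Cd200r3 and Prg2. In replicate 2 Hdc led Mcpt8 and Cpa3, and Prss34 came after Prg3. In CPM, with no correction for length, 3 pairs were separate.

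Set side by side, 2 of the 7 members of 1 TPM or more on average differed by over 2-fold, Prss34 at -4.41 and Fcer1a at -3.07 in log2(TPM + 1), replicate 2 minus replicate 1. Over all protein-coding genes of that level 7.52% did, and 3.08% with replicate 1 higher. The other members were at -0.97 for Ms4a2, -0.96 for Prg3, -0.62 for Mcpt8, -0.21 for Cpa3 and 0.06 for Hdc. In plain TPM Ms4a2 at 2.06 and Prg3 at 2.21 were also past 2-fold. The median of the 7 log2 values was -0.96, beside 0.04 over all protein-coding genes of that level. Replicate 1 was higher by any amount in 6 of the 7, against 45.3% of protein-coding genes. The deposited TPM intervals did not overlap between the libraries in 6 of the 7, Hdc being the exception, against 58.1% of protein-coding genes. Such intervals thus separate most genes of these libraries, and the level given to them is not stated in the sources used here.

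Low genes differ more between libraries than high ones. Among genes of 1 to 10 TPM, where Fcer1a and Prg3 lie, 13.9% differed by over 2-fold, and among genes of 10 to 100 TPM, where the other 5 lie, 3.37% did. Among genes within 2-fold of its own mean TPM the share was 12.7% for Fcer1a and 3.68% for Prss34. The effector genes were read with these values known, so none of the counts is a test.

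**Figure D2:**
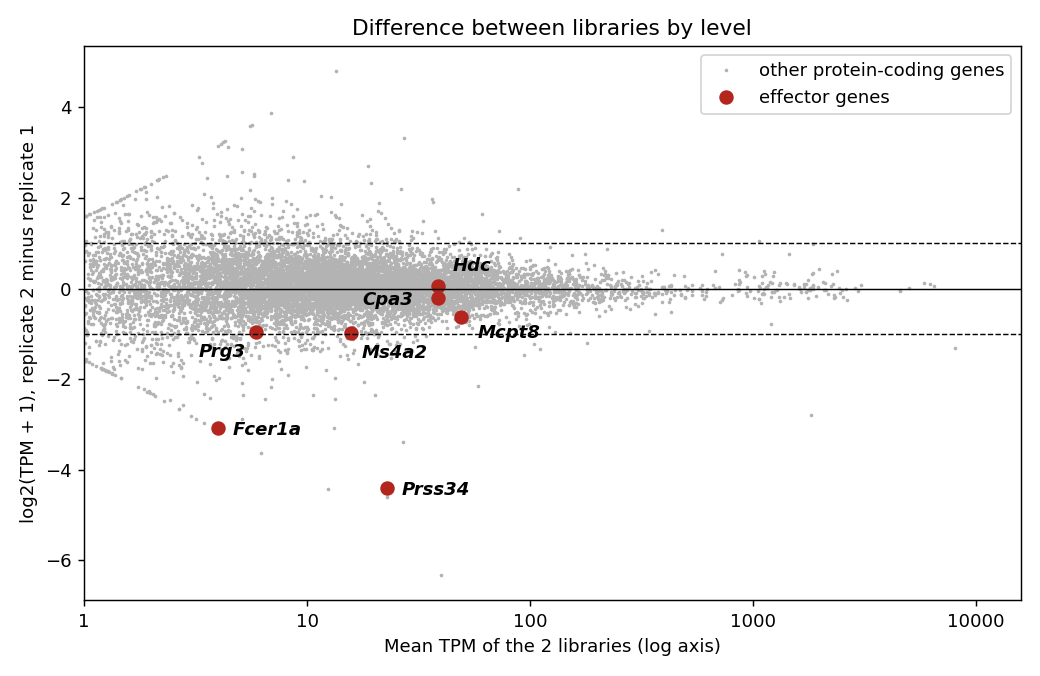
Each protein-coding gene of 1 TPM or more on average is a grey point, placed by its mean TPM (log axis) and by its difference in log2(TPM + 1), replicate 2 minus replicate 1, and the 7 effector genes of that level are red. Dashed lines mark 2-fold; Prss34 at -4.41 and Fcer1a at -3.07 lie below the lower line, and Hdc at 0.06 lies near 0.

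The 6 genes of 10 TPM or more furthest toward replicate 1 were Prss34, mt-Nd4l, Auts2 and 3 neutrophil granule genes. The mitochondrial gene mt-Nd4l was at 79.3 and 0 TPM, and Auts2 at 50.04 and 3.87 TPM. The counts of Auts2 lay much closer than its TPM, at 355 and 254. Of the granule genes, Ngp was at 44.7 and 0.880 TPM, Chil3 at 24.7 and 0.190 TPM and Camp at 24.4 and 1.99 TPM. In the whole list of late neutrophil granule genes, 6 of the 9 genes of 1 TPM or more on average were over 2-fold higher in replicate 1. Over all protein-coding genes of that level the share was 3.08%. The other 2 past 4-fold were Retnlg at 12.4 and 0.0800 TPM and Ltf, lactoferrin, at 3.71 and 0.0100 TPM. S100a8 and S100a9, the calprotectin subunits and the highest of the list, were at 448 and 233 TPM and at 159 and 62.2 TPM. Mmp8 of this list went the other way, at 1.07 and 2.24 TPM. The list summed to 744 TPM in replicate 1 and 313 TPM in replicate 2, its median difference was -2.22, and no gene of it was at 0 in both libraries. The part of neutrophil-lineage cells in the difference at Prss34 and Fcer1a was not tested. Sums over monocyte genes (2389 and 2168 TPM) and megakaryocyte and erythroid genes (14.9 and 12.6 TPM) were closer between the libraries. Of 10 lymphoid genes, 8 had 0 counts in both, against 42.5% of all protein-coding genes, while Nkg7 of that list was at 273 and 260 TPM.

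Transcript shares, the percent of a gene's TPM on each annotated transcript, divided the members further. Mcpt8, Prss34 and Prg2 have 1 transcript each. For Hdc the coding Hdc-201 held 82.8% of TPM in replicate 1 and 91.5% in replicate 2. Hdc-204, a transcript with retained introns, held 7.82% and 7.23%, and its exons include stretches of 2242 and 1471 bases of which Hdc-201 shares 258 and 91 bases. Hdc-203, a short non-coding transcript, held 9.43% and 0.310%, from 38.7 and 1.20 counts. The coding transcript was thus the main one in both libraries.

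For Ms4a2 the main transcript was Ms4a2-204, with 77.3% and 70.0%. It is annotated as coding, 2391 bases long, with a last exon of 2049 bases against 615 in Ms4a2-201. Ms4a2-204 lacks an exon of 99 bases and keeps 15 of the 135 bases of another, both of which are whole in Ms4a2-201. Ms4a2-202 held 12.4% and 20.6%, and Ms4a2-201 held 10.3% and 5.30%. The long last exon gives most of the length over which reads can be assigned to Ms4a2-204, and whether the missing exons were skipped cannot be read from these tables.

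The main transcript of Prg3 differed between the libraries. Prg3-202, which is annotated as non-coding, held 74.5% in replicate 1, from 57.02 counts, and 23.0% in replicate 2, from 7.17 counts. The coding Prg3-201 held 25.5% and 77.1%, from 48.0 and 58.8 counts. Prg3-202 lacks the exon of 308 bases at chr2:84989225-84989532 that Prg3-201 holds. The counts of the coding transcript were thus close between the libraries and those of the short one were not. For Fcer1a, Fcer1a-201 held 95.7% in replicate 1, and the single count of replicate 2 was given to Fcer1a-202, so its main transcript differed too, from 1 count.

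**Figure D3:**
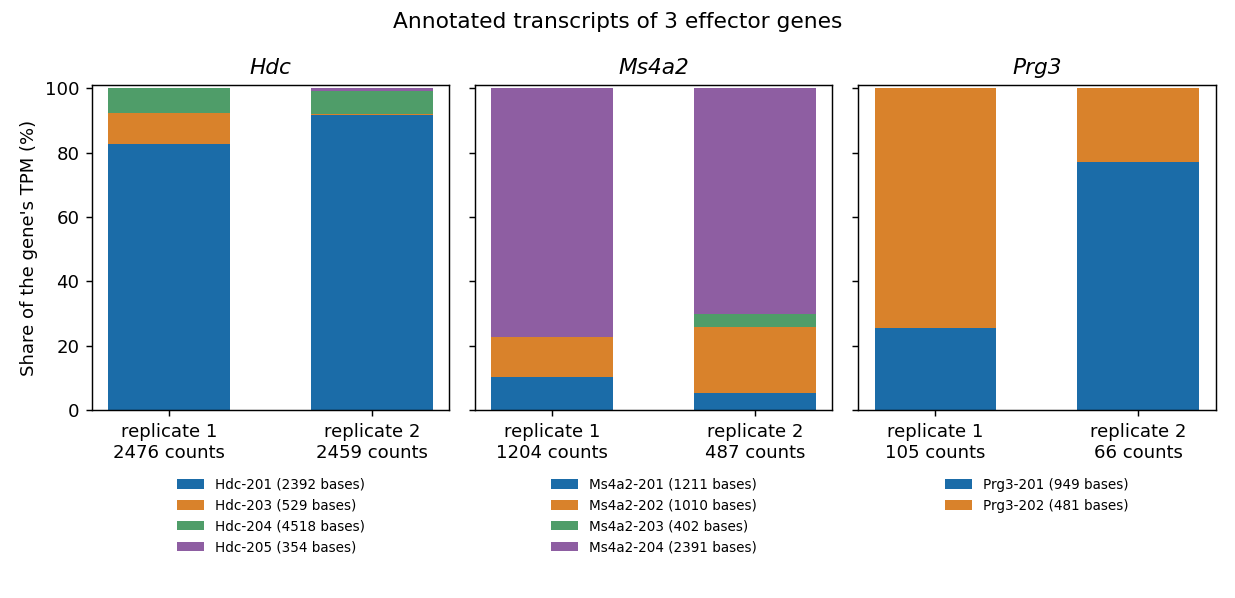
Stacked bars give the share of the gene's TPM (percent) on each annotated transcript with counts, for Hdc, Ms4a2 and Prg3 in replicate 1 and replicate 2, with the gene's expected counts under each bar. Hdc-201 and Ms4a2-204 lead in both libraries, while Prg3-202 leads in replicate 1 with 74.5% and Prg3-201 in replicate 2 with 77.1%.

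The label of the 9 genes was set against other genes of each cell type. Of 12 other mast cell genes, 7 had 0 counts in both libraries: Cma1, Tpsab1, Tpsb2 and Mcpt4 of the granule proteases, the receptors Mrgprb1 and Mrgprb2, and Rgs13. The highest were Kit, which all these progenitors use, Mitf, a regulator of mast cells, at 2.79 and 4.56 TPM, and Itgb7 at 4.08 and 2.84 TPM. Il1rl1, the interleukin 33 receptor, was at 1.56 and 0.510 TPM. Of 10 other eosinophil genes, 6 had 0 counts in both: Il5ra, Ccr3, Ear1, Ear6, Ear10 and Alox15. Epx, eosinophil peroxidase, had 29 and 0 counts, Ear2 had 1 and 0, and Siglecf, at 5.69 and 7.98 TPM, was the only one at 1 TPM in both. Genes at 0 in both libraries were thus 7 of 12 and 6 of 10 in these lists, beside 42.5% of all protein-coding genes, and other genes of the same cell types, Cpa3, Ms4a2 and Prg3 among them, were detected.

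Of 13 other basophil genes, 8 reached 1 TPM in both libraries, against 45.6% of all protein-coding genes. None was at 0 in both, against 42.5%. The highest were Cd69 at 24.4 and 21.01 TPM, Itga2b at 8.15 and 6.00 TPM and Il3ra, the interleukin 3 receptor, at 3.23 and 9.78 TPM. Of the 11 genes of 1 TPM or more on average, 3 were over 2-fold higher in replicate 1 and 1 in replicate 2. The 3, named after their values were seen, were Cyp11a1, a steroid-making enzyme, at 3.36 and 0.280 TPM from 147 and 5 counts, Il6 at 3.23 and 0.250 TPM from 88 and 6 counts, and Gzmb. The 1 in the other direction was Il3ra. The median difference of the 11 was -0.21 and 8 of 11 were higher in replicate 1. Itga2, under 1 TPM in both libraries, had 0 counts in replicate 1 and 13 in replicate 2. The list therefore did not move as 1 block. Il4, the cytokine of activated basophils, had 8 and 0 counts, and of the 10 cytokine genes Il3, Il5, Il13 and Csf2 had 0 in both. The highest cytokine genes were Tnf at 2.82 and 5.87 TPM, Csf1 at 3.41 and 3.06 TPM and Ccl3 at 3.09 and 2.63 TPM. Csf1 had 327 and 131 counts, further apart than its TPM.

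Of 16 listed regulators of basophils and mast cells, 14 reached 1 TPM in both libraries, against 45.6% of all protein-coding genes. Cebpa and Cebpe of this list are also in the granulocyte-monocyte list, so the count does not mark 1 lineage. Spi1 (PU.1) was at 99.9 and 118 TPM, Irf8 at 102 and 103 TPM and Runx1 at 65.0 and 96.1 TPM. Gata2 was even, at 9.69 and 9.93 TPM, and Gata1 was at 2.11 and 1.07 TPM. Cebpa, which GMP depend on, was at 36.1 and 35.2 TPM. Gata3, from 0 and 22 counts, was at 0 and 8.18 TPM and was the list's only gene apart by over 2-fold in log2(TPM + 1). In replicate 2 Gata2 had 783 counts for its 9.93 TPM, so these TPM values rest on very unlike counts. A part of Gata2 in the differences at Prss34 and Fcer1a was not tested. Whether Gata2 was in the same cells as Prss34 and Fcer1a cannot be read from pooled RNA.

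Of the 11 receptor genes for growth factors of basophils and mast cells, 8 reached 1 TPM in both libraries, against 45.6% of protein-coding genes. After Kit the highest were Csf2rb, the beta chain shared by the receptors of interleukin 3, interleukin 5 and GM-CSF, at 37.3 and 36.4 TPM, and Csf2ra at 30.04 and 33.1 TPM. In log2(TPM + 1) 2 genes were over 2-fold apart, Il3ra and Crlf2, the latter a receptor chain for TSLP at 2.25 and 8.27 TPM. Both were higher in replicate 2, the direction opposite to Prss34 and Fcer1a. Il1rl1, from 169 and 30 counts, was 3.06-fold higher in replicate 1 in plain TPM but inside 2-fold on that scale. Of the 9 genes of 1 TPM or more on average, 6 were higher in replicate 1 by any amount, against 45.3% of protein-coding genes. Il5ra and Il7r had 0 counts in both libraries.

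**Figure D4:**
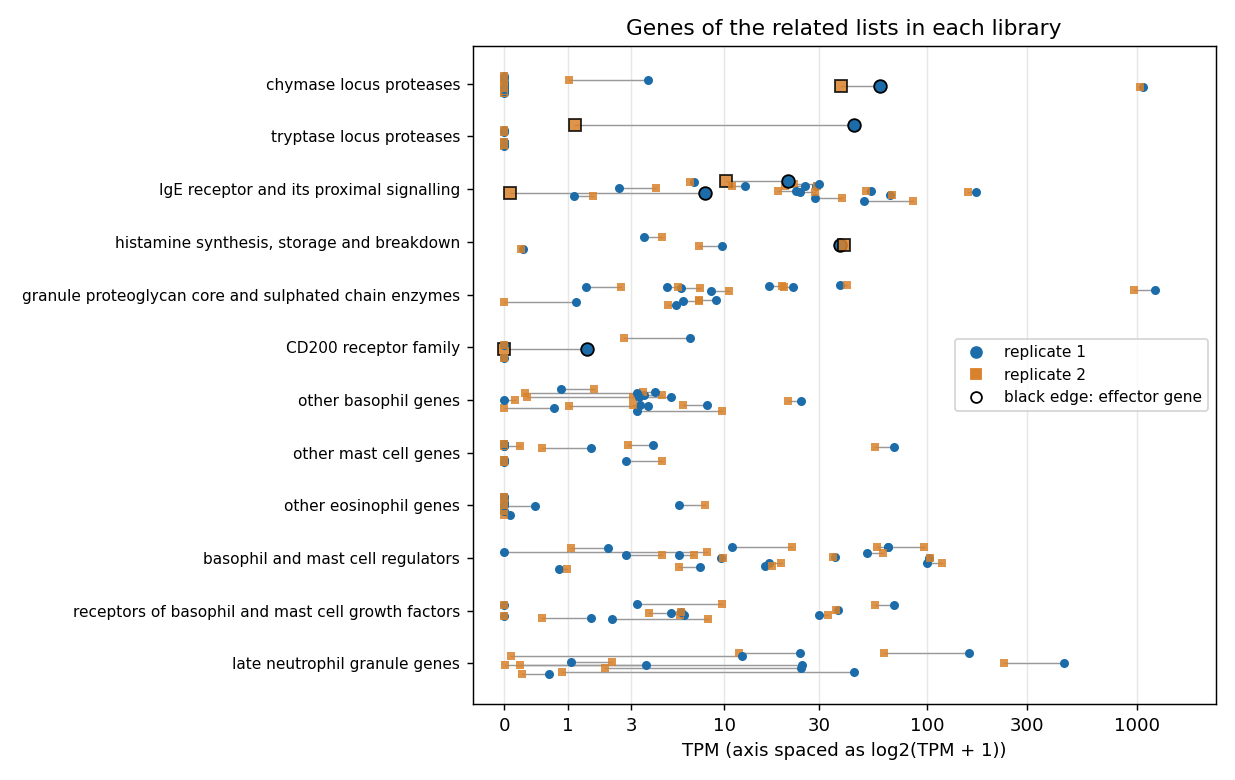
Each gene of 12 related lists (rows) is drawn at its TPM in replicate 1 (blue circle) and replicate 2 (orange square), joined by a line, on an axis spaced as log2(TPM + 1), and effector genes have a black edge. Most genes of the chymase and tryptase lists sit at 0 beside Mcpt8 and Prss34. The IgE receptor list holds Fcer1a as its only gene apart by over 2-fold on that scale, and late neutrophil granule genes mostly lie higher in replicate 1.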

How the data were processed

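The authors deposited expected counts, estimates that can be fractional, per gene and transcript. The TPM values deposited by the authors share 1 total over all rows, and the FPKM values they deposited divide counts by effective length and library size. The percent of gene TPM held by each transcript and the interval bounds on TPM were also deposited by the authors. Assembly mm10 and annotation M4 were used, per the deposited text files. Not given in the sources used here are the aligner, the quantification tool and the use of strand. Mir6949 in Mcpt8 and Mir7007 in Cpa3, on the same strand, had 0 counts, and no other annotated gene overlaps a member.

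Symbols and spans came from GENCODE M21 on GRCm38, matched by Ensembl identifier. The members and lists were chosen with earlier results of these data known. Named genes are the members, the 3 highest of each list used, those at 0 counts in both libraries, those over 4-fold apart at 1 TPM or more, and both protease clusters. Some list genes outside that rule are named for what they are known to do. Of the monocyte, megakaryocyte and erythroid, stem cell, lymphoid and granulocyte-monocyte lists, not all genes under that rule are named. Differences are in log2(TPM + 1) with a pseudocount of 1, which understates ratios of low genes. CPM are counts over the library total, and ratios of counts have 95% exact (Clopper-Pearson) intervals. Alternatives used TMM factors (edgeR 4.0.16) and size factors (DESeq2 1.42.0, R 4.3.3) on counts rounded to whole numbers, other pseudocounts, filters and scalings, and each library left out. Other steps used Python 3.11.15, numpy 2.4.6, pandas 2.3.3, scipy 1.17.1 and matplotlib 3.10.9. The ratio step was tested on simulated data. With 1 group, no comparison between groups was made.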

Additional observations from a re-analysis of the deposited data

How the results depend on the processing

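With 2 libraries of 1 group, each value rests on few cells, and leaving out 1 library leaves a single value. The median member level, 15.7 TPM, was 3.68 TPM without replicate 1 and 21.1 TPM without replicate 2. Members at 1 TPM or more numbered 6 in both libraries and without replicate 1, and 8 without replicate 2. On CPM 3 neighbouring pairs were separate in place of 1. Members over 2-fold apart, 2 in log2(TPM + 1), were 1 at 10 TPM or more (3.13% of genes) and 4 with pseudocount 0.1 (11.4% of genes). They were 3 with TMM factors (5.54% of genes) or DESeq2 size factors (5.53%). With those factors the log2 ratio of Prg3 was -0.39 and -0.40. That of Fcer1a was -5.65 with pseudocount 0.1 and -1.35 with pseudocount 5. Of the mean levels of single members, 37 of 45 did not move beyond the SD of the libraries. Those with 1 library left out could not, since with 2 libraries that step always shifts a mean by less than their SD. Those of Prg2 were 0 throughout, so these values say nothing of stability. The 8 mean levels that moved were of Mcpt8, Hdc, Cpa3 and Prg3 on other scales. With TPM rescaled without Gm42418, Gm26917, Mir6236 and Lars2, Mcpt8 went from 49.1 to 67.3 TPM. Hdc went from 38.8 to 53.0 TPM and Cpa3 from 38.7 to 53.0 TPM. The median member level was 21.6 TPM on that scale, so the levels depend on what is counted in the total. Of the 48 ratios, 6 were marked as moved: Fcer1a and Cd200r3 with other pseudocounts, and Prg3 with TMM or DESeq2 factors. No direction reversed under the alternatives run. No paired analysis was possible because the series holds 1 group. The few counts of Fcer1a and Cd200r3 in replicate 2, and of Prg3 in both, leave their ratios imprecise.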
